A study of Homo sapiens with 42 samples.

Results

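The genes described here are 10 histone H3 lysine methyltransferase genes, KMT2A, KMT2B, KMT2C, KMT2D, SETD1A, SETD1B, EHMT1, EHMT2, SETDB1 and EZH2, out of 34290 genes to which transcript rows could be assigned. They were chosen by symbol, with the gene totals of KMT2D, EHMT2 and SETD1A known to move, and the question was whether reads of those genes shift between transcripts of different length rather than fall. Totals of these 3 genes are therefore given as a description, with no test. In the files the 10 genes have 132 of 194142 transcript rows, and every row holds an estimated read count and a TPM value (a level per length) for each of 42 poly(A) RNA libraries.

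The study lowered or blocked RNA polymerase III, which makes tRNAs and other short RNAs, and measured messenger RNA. HEK293T cells, a human embryonic kidney line, received for 48 h at 200 nM a POLR3G antisense oligonucleotide (ASO) or a scrambled ASO. Other HEK293T cells received for 48 h at 200 nM a POLR3G siRNA or a control siRNA, and others for 48 h at 25 nM 1 of 3 POLR3GL siRNAs (siE4, siE6, siE8) or a control siRNA. POLR3G and POLR3GL encode alternative subunits of the polymerase. A further set overexpressed for 48 h MAF1, a polymerase III repressor, or eGFP. THP-1 cells, a human monocytic leukaemia line, received ML-60218, a polymerase III inhibitor, at 25 uM for 4 h with cycloheximide (CHX, a translation inhibitor, 10 ug/ml, 4.5 h), CHX alone, ML-60218 alone, or DMSO. All transfected cells carry a lipid reagent, and each of the 14 groups has 3 libraries. The labels do not say whether these came from separate cultures, so p-values measure the spread between libraries only.

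Methyltransferases of this class add methyl groups to lysines of the histone H3 tail. KMT2A to KMT2D and SETD1A and SETD1B work in COMPASS-type complexes that methylate H3K4, a mark of enhancers and promoters; KMT2C and KMT2D act mainly at enhancers. EHMT1 and EHMT2 form the heterodimer (GLP and G9a) that methylates H3K9 in euchromatin, SETDB1 places H3K9 trimethylation at retroelements with its partner TRIM28, and EZH2 is the catalytic subunit of Polycomb repressive complex 2, which methylates H3K27. Several are encoded by very long messenger RNAs, so a change in which transcripts carry the reads moves a gene's total even where the number of molecules does not change.

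Depth ran from 32705684 to 52568088 estimated reads per library, and 8.07% to 9.55% of the reads lay on rows that matched no GENCODE 29 transcript. All 12 monocytic markers exceeded 1 CPM (counts-per-million, a level relative to all estimated reads of the library) in each THP-1 library, with sums of 4264 to 6135 CPM, against sums of 2.72 to 38.9 in HEK293T libraries. Of 9 HEK293T markers, 8 passed the same level in every HEK293T library, and 1 did in THP-1. POLR3G was 2.81-fold lower with the ASO and 2.38-fold lower with the siRNA, POLR3GL was 11.8-fold, 10.2-fold and 13.1-fold lower with siE4, siE6 and siE8, and MAF1 was 74.7-fold higher with its overexpression (edgeR, adjusted p = 3.5e-05, 4.7e-05, 3.3e-10, 3.2e-10, 1.5e-10 and 2.9e-10). The other subunit gene was lower too: POLR3GL 1.36-fold with the ASO and 1.49-fold with the POLR3G siRNA, and POLR3G 1.80-fold, 1.48-fold and 1.91-fold with siE4, siE6 and siE8 (edgeR, adjusted p = 0.00019, 7.9e-07, 1.2e-06, 3.1e-05 and 4.0e-07). MAF1 was also 5.08-fold lower with the POLR3G siRNA (edgeR, adjusted p = 1.2e-09), and its part in the results of that comparison was not tested.

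Transcript rows can be told apart only by the bases they do not share. The rows compared below for KMT2D and EHMT2 share between 24.4% and 92.3% of their 31-base words with the leading row of the gene, and the following stretches show what is particular to 2 KMT2D rows whose sequence version is the same in the files and in GENCODE 29 (GRCh38, 5′ to 3′ on the minus strand, capitals for bases absent from the leading row at a word length of 31 bases). The deposited KMT2D-201 has another version, so the capitals refer to its GENCODE 29 sequence. The windows are chr12:49035937-49036017 in KMT2D-204, which overlaps no exon of KMT2D-201, and chr12:49043554-49043673 in KMT2D-206, which overlaps 1.
KMT2D-204: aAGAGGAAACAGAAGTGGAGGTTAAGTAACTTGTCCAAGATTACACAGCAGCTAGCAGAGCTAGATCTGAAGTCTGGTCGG
KMT2D-206: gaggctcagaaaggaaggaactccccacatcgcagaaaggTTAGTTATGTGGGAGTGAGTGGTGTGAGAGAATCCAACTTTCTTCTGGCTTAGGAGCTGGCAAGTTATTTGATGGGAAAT

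Of the short KMT2D rows, KMT2D-204 shares 24.4% of its 31-base words with KMT2D-201, KMT2D-206 43.9%, KMT2D-207 77.2%, KMT2D-202 90.7% and KMT2D-208 92.3%. EHMT2-211 shares 90.3% with EHMT2-203. A read from a shared stretch fits both rows, and the deposited counts hold the assignment that Salmon made.

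KMT2D (chromosome 12, 49018975 to 49059774) had no reads on its long transcript with the POLR3G ASO, and its short transcripts held a few CPM in either group. Of its 8 annotated transcripts 6 have a row in the files used here, so its total, TPM, mean length and short share cover these rows only. Its gene total was 3.88, 4.90 and 5.20 CPM in the POLR3G ASO libraries, against 31.6, 23.8 and 38.3 in the scrambled ASO libraries. The groups did not overlap, and the fitted difference was -2.82 ± 0.18 on the log2 scale (SE). KMT2D-201, the full-length coding row of 19419 annotated bases, was listed at 0 in each of the 3 POLR3G ASO libraries, against 28.0, 20.5 and 35.5 CPM with the scrambled ASO. From the deposited counts and TPM values its length was 18089 bases.

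The 5 other KMT2D rows, of 445 to 860 annotated bases, together held 3.88, 4.90 and 5.20 CPM with the POLR3G ASO, against 3.56, 3.33 and 2.79 with the scrambled ASO. The ASO libraries lay above the scrambled ones, by far less than the level that KMT2D-201 had held. None of the 3 that were tested passed the threshold (edgeR, adjusted p = 0.19 for KMT2D-202, 0.56 for KMT2D-207 and 0.26 for KMT2D-204), in a comparison where 24.6% of all transcript rows did. The share of KMT2D reads on transcripts shorter than 50% of the longest was 100% in every ASO library and 10.8% ± 3.38 in scrambled libraries (SD, n = 3; exact two-sided permutation test p = 0.1, the smallest that 3 against 3 libraries allow).

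Mean transcript length, the length of a gene's transcripts weighted by their TPM, followed this loss. It is taken from counts and TPM values, so small differences can also arise without a shift between rows. It was 644, 643 and 694 bases for KMT2D with the POLR3G ASO, against 4637, 3676 and 6286 bases with the scrambled ASO, a log2 difference of -2.85 ± 0.19 (SE; limma, adjusted p = 0.0021). The test of isoform usage, which asks whether rows of 1 gene change unequally, gave an adjusted p of 4.9e-10 (edgeR diffSpliceDGE), and both calls held without any single library. With the length entered as an offset the KMT2D total differed by 0.01 ± 0.10 on the log2 scale (SE), given as a description. The tests of length and usage share libraries and reads with the total that led to the choice of the gene.

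Per length, KMT2D stood at 8.45, 10.6 and 10.6 TPM with the POLR3G ASO, against 9.11, 8.60 and 8.29 TPM with the scrambled ASO. The groups overlapped. TPM divides the reads of a row by its length, so a read on a short row counts for more than 1 on KMT2D-201.

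The POLR3G siRNA, which names the same target gene, gave a similar picture with wider spread. KMT2D totals were 1.73, 4.91 and 1.53 CPM with the POLR3G siRNA, against 26.1, 9.08 and 14.9 with control siRNA, a log2 difference of -2.49 ± 0.50 (SE). KMT2D-201 was listed at 0 in 2 POLR3G siRNA libraries and held 2.99 CPM in the other, against 24.9, 6.85 and 13.1 in the control libraries. The short rows together held 1.73, 1.92 and 1.53 CPM with the POLR3G siRNA, against 1.18, 2.23 and 1.75 with control siRNA, and overlapped. Their share of KMT2D reads was 79.7% ± 35.1, against 13.6% ± 10.2 with control siRNA (SD, n = 3, exact two-sided permutation test p = 0.1).

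Mean length of KMT2D was 709, 1629 and 630 bases with the POLR3G siRNA, against 8419, 2552 and 4027 bases with control siRNA. The log2 difference of -2.30 ± 0.56 missed the threshold (SE; limma, adjusted p = 0.058), isoform usage had an adjusted p of 0.16 (edgeR), and the total with the length offset differed by -0.25 ± 0.12 (SE). Without POLR3G siRNA replicate 2, the library that kept KMT2D-201, usage passed (adjusted p = 5.6e-05), and the total with the offset differed by -0.40. The ASO effect minus the siRNA effect on mean length was -0.55 ± 0.64 (SE; limma, adjusted p = 0.65), with a standard error larger than the difference.

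KMT2D-201 also came and went between replicates of other groups. It was listed at 0 in 1 siE6 library, 2 MAF1 libraries, 2 libraries with ML-60218 and CHX, 1 CHX library and 2 ML-60218 libraries, each beside a replicate with 3.38 to 19.9 CPM. In the MAF1 libraries it stood at 0, 0 and 18.2 CPM, against 7.16, 8.98 and 27.1 in eGFP libraries. In ML-60218 libraries it stood at 0, 0 and 3.38, against 8.73, 3.36 and 8.35 in DMSO libraries. Replicates within these groups lay far apart. The short share of KMT2D was 75.5% ± 42.5 with ML-60218, against 18.3% ± 3.82 with DMSO (SD, n = 3, exact two-sided permutation test p = 0.1). That p was at least 0.3 with siE4, siE6, siE8, MAF1, CHX, and ML-60218 with CHX. No test of KMT2D length or usage passed in the comparisons other than the ASO one when all libraries were used. Without MAF1 replicate 3, the library that kept KMT2D-201, usage passed with MAF1 (edgeR, adjusted p = 0.0012). With CHX the KMT2D total with the length offset differed by -0.89 ± 0.26 on the log2 scale (SE), and the short row KMT2D-204 held 0.289, 0.277 and 0.157 CPM, against 0.525, 0.300 and 0.764 with DMSO (adjusted p = 0.047, and up to 0.17 with a library left out).

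Among the rows that match no GENCODE 29 transcript, 10 have an effective length within 3% of that of KMT2D-201 and at least 3 CPM in some library. One of them, ENST00000683543, which the tables used here pair with no gene, was singled out after its values were seen, as the row with the lowest correlation with KMT2D-201 over the 42 libraries (r = -0.59 on log2 values centred within experiment; the next lowest of the 10 was -0.23). It held 84.9, 73.6 and 83.4 CPM with the POLR3G ASO, against 38.0, 48.0 and 42.04 with the scrambled ASO. With the POLR3G siRNA it held 11.6, 14.7 and 17.2, against 1.56, 13.6 and 9.28 with control siRNA. That its values run opposite to KMT2D-201 follows from this choice and is no test. The same search gave a lowest r of -0.51 to -0.69 for KMT2B, SETD1A, SETD1B, EHMT1, EHMT2, SETDB1 and EZH2, each among 139 to 297 rows. For KMT2A and KMT2C it gave -0.07 and -0.13, among 9 and 6 rows.

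Added to the KMT2D total, this row gave sums of 88.8, 78.5 and 88.6 CPM with the POLR3G ASO, against 69.5, 71.8 and 80.3 with the scrambled ASO. The ASO sums were not below the scrambled ones: the lowest ASO sum lay between the 2 highest scrambled sums. The sums were 13.4, 19.7 and 18.7 with the POLR3G siRNA, against 27.7, 22.6 and 24.2 with control siRNA, and here the groups stayed apart. These sums use a row chosen for its values opposite to KMT2D-201, so they are a description. Whether reads moved between these rows was not tested.

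**Figure D1:**
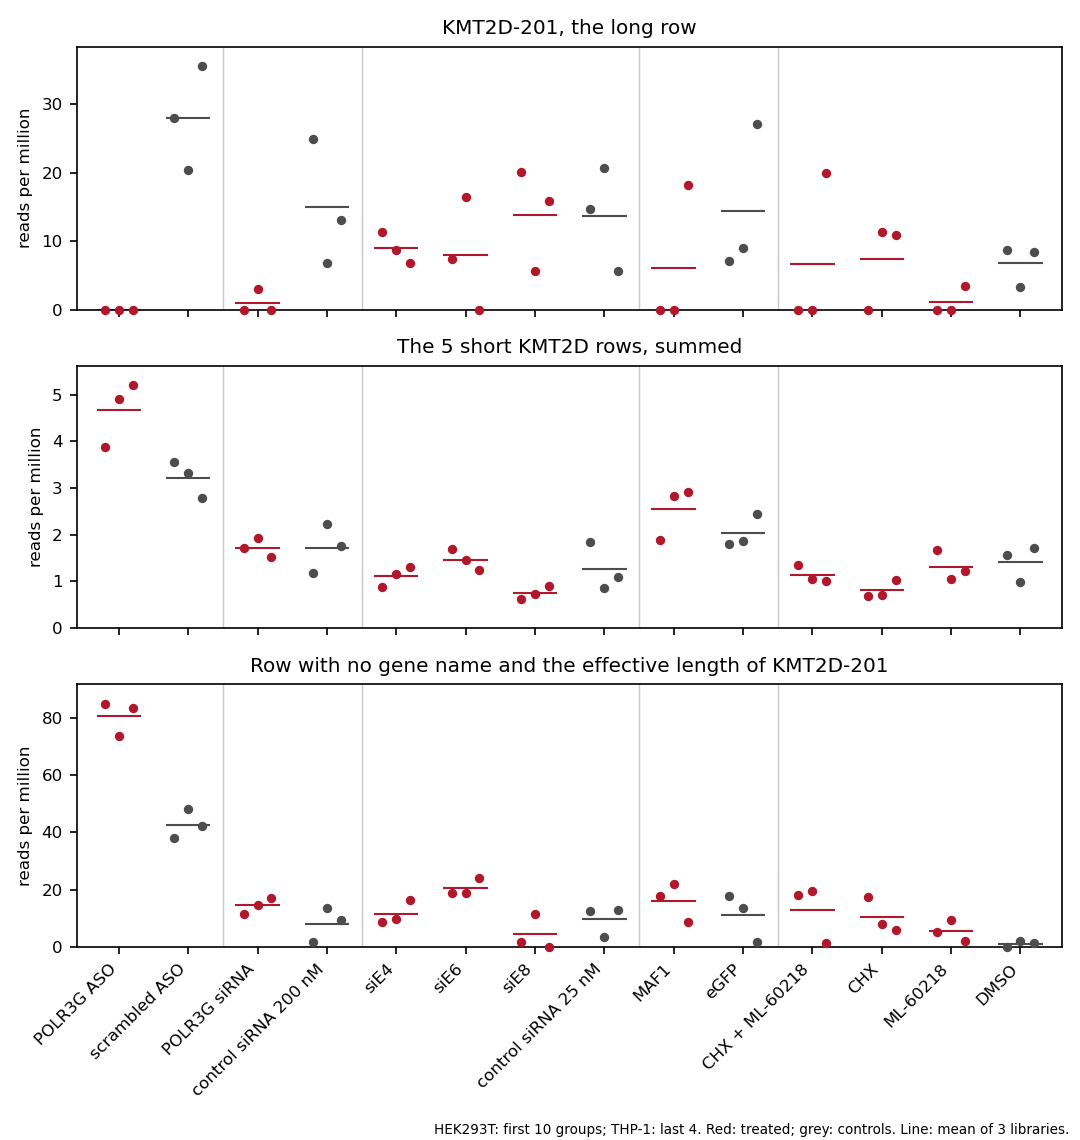
Levels, in CPM, of KMT2D-201, of the 5 short KMT2D rows summed and of the row with no gene name and a like length, in each of 42 libraries (points) with the mean of 3 (lines), treated groups to the left of their controls. KMT2D-201 is at 0 in all 3 POLR3G ASO libraries, against 20.5 to 35.5 with the scrambled ASO, while the unnamed row is at 73.6 to 84.9, against 38.0 to 48.0. The unnamed row was chosen for its low correlation with KMT2D-201 over these same libraries.

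EHMT2 (chromosome 6, 31879759 to 31897687) was lower in total in 4 HEK293T groups, and its rows hardly differ in length. Only 2 of its 12 annotated transcripts have a row in the files used here, EHMT2-203 (coding, 3965 bases) and EHMT2-211 (a processed transcript, 3940 bases), so its total is the level of these rows. EHMT2 totals were 19.7, 1.25 and 3.07 CPM with the POLR3G ASO, against 31.6, 27.2 and 27.8 with the scrambled ASO. ASO replicate 1 stood far above the others, and the fitted log2 difference was -1.92 ± 0.67 (SE), or -3.83 without that library and -1.41 without ASO replicate 2.

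EHMT2-203 itself was at 19.7, 0 and 0 CPM with the POLR3G ASO, against 29.2, 25.4 and 24.5 with the scrambled ASO. The remaining reads of ASO replicates 2 and 3, 1.25 and 3.07 CPM, lay on EHMT2-211. Mean length moved by -0.03 ± 0.02 on the log2 scale (SE; limma, adjusted p = 0.40). Isoform usage did not pass (edgeR, adjusted p = 0.85), and passed without ASO replicate 1 (adjusted p = 1.5e-05), the library that kept EHMT2-203.

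With the POLR3G siRNA the replicates lay closer together, at 24.6, 24.6 and 19.5 CPM, against 34.8, 40.9 and 32.3 with control siRNA (log2 -0.54 ± 0.11, SE). With siE4 EHMT2 stood at 18.1, 21.3 and 17.3 and with siE6 at 13.7, 15.8 and 12.7, against 37.5, 36.4 and 36.7 in the shared control siRNA libraries (log2 -0.87 ± 0.09 and -1.29 ± 0.09, SE). With siE8 it stood at 42.7, 38.9 and 38.1, above the same controls. So siE4 and siE6 libraries lay below the controls and siE8 libraries above them.

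In siE6 libraries EHMT2-211 was listed at 0 throughout, against 3.21, 1.97 and 0 CPM in control libraries. Isoform usage passed there with edgeR (adjusted p = 0.0035) and did not with limma diffSplice (adjusted p = 0.59). MAF1 and eGFP libraries did not separate, with 18.0, 17.2 and 24.5 CPM for MAF1, against 24.2, 32.6 and 2.65 for eGFP. eGFP replicate 3 had no reads on EHMT2-203, like ASO replicates 2 and 3. All 12 THP-1 libraries listed both EHMT2 rows at 0, which says nothing of the 10 transcripts without a row.

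SETD1A (chromosome 16, 30957294 to 30984664) was higher in total with the POLR3G siRNA, with nearly all reads on the same row as in controls. Its totals were 64.5, 54.2 and 52.6 CPM with the POLR3G siRNA, against 27.3, 36.8 and 39.3 with control siRNA, a log2 difference of 0.84 ± 0.13 (SE). With the POLR3G ASO they were 52.6, 41.95 and 51.4, against 40.7, 52.3 and 47.7 with the scrambled ASO, and overlapped. With ML-60218 and CHX they were lower, at 5.16, 4.38 and 2.42 CPM, against 9.18, 7.70 and 11.5 with CHX alone (log2 -1.21 ± 0.28, SE). With the length offset that difference was -0.57 ± 0.21.

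SETD1A-201, the long coding row, carried 97.7% to 99.3% of SETD1A reads in the means of the HEK293T groups and 90.9% to 97.3% in those of THP-1. Under the POLR3G siRNA mean length differed by 0.09 ± 0.06 (SE; limma, adjusted p = 0.44), and the total with the length offset by 0.74 ± 0.15. Under ML-60218 with CHX the log2 length difference was -0.75 ± 0.31 (limma, adjusted p = 0.39), with 2847, 2961 and 1229 bases, against 4141, 3684 and 3231 bases with CHX. In the siE8 comparison SETD1A length was 4208, 4146 and 4344 bases, against 4552, 4918 and 5068 bases in controls, a called log2 difference of -0.19 ± 0.04 (limma, adjusted p = 0.015). That call was lost without siE8 replicate 2 (adjusted p = 0.056) or control replicate 2 (adjusted p = 0.058).

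**Figure D2:**
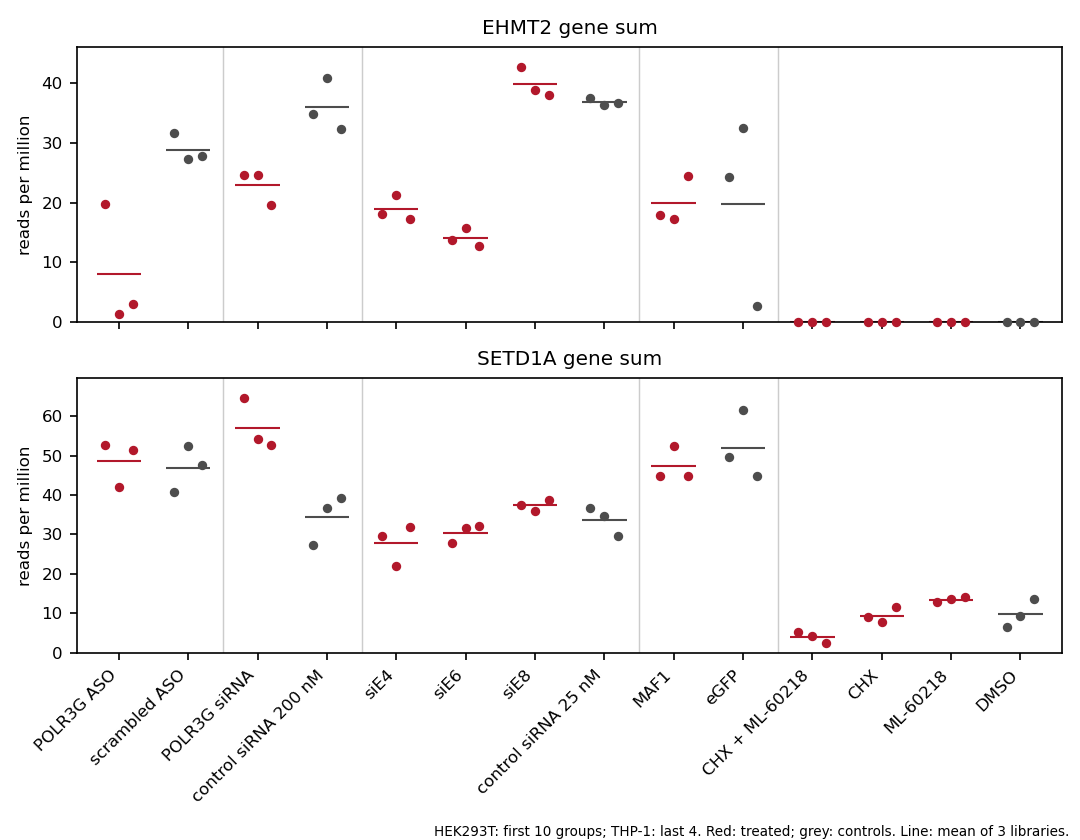
Gene totals of EHMT2 and SETD1A in CPM in each library (points) with the mean of 3 (lines), treated groups to the left of their controls. EHMT2 is at 12.7 to 21.3 with siE4 and siE6, against 36.4 to 37.5 in their controls, and at 0 in THP-1; SETD1A is at 52.6 to 64.5 with the POLR3G siRNA, against 27.3 to 39.3 with control siRNA.

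Of the 7 genes whose totals did not lead to their choice, 2 passed the threshold of an adjusted p under 0.05 with the POLR3G ASO, where 68.5% of all tested genes did, and 5 did with the POLR3G siRNA, where 74.9% did. Counts of these 7 were 5 with siE4 (54.9% of all genes), 4 with siE6 (63%), 3 with siE8 (57.7%) and 6 with CHX (66%). The shares lay near or below those of all genes except with siE4 and CHX, where they were higher. None of the 7 passed in edgeR with ML-60218 under CHX (16.5%), MAF1 (0.0386%) or ML-60218 alone (15.7%), where 1, 0 and 1 of them had an unadjusted p under 0.05. DESeq2 called 0 of the 7 in these 3 comparisons. The median log2 difference of all tested members, a description, was -0.02 with the ASO, -0.24 with the POLR3G siRNA and 0.30 with CHX, beside -0.0033, -0.02 and -0.0022 over all genes.

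**Figure D3:**
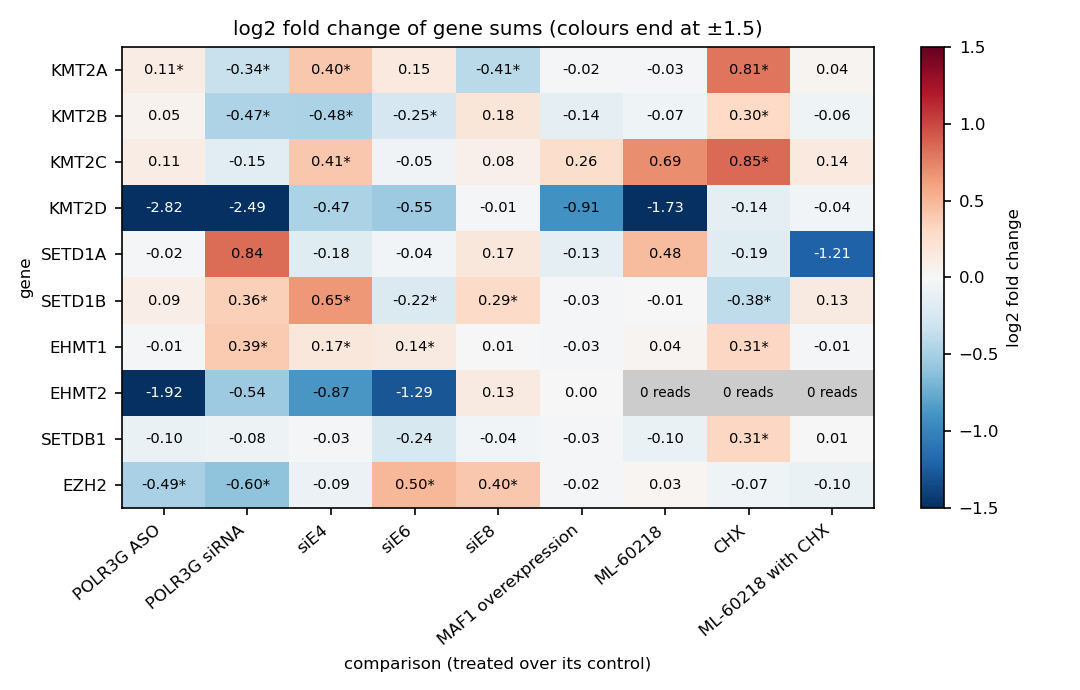
Log2 difference of each gene total between a treated group and its control, for 10 genes and 9 comparisons (colours end at 1.5 in either direction; asterisks mark adjusted p under 0.05 in edgeR for the 7 genes whose totals did not lead to their choice). EZH2 was lower in both POLR3G comparisons (-0.49 and -0.60) and higher with siE6 and siE8 (0.50 and 0.40).

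EZH2, the Polycomb methyltransferase, was lower with both POLR3G agents. It stood at 60.3, 51.0 and 66.5 CPM with the POLR3G ASO, against 78.3, 75.2 and 83.1 with the scrambled ASO (log2 -0.49 ± 0.08, SE; edgeR, adjusted p = 0.00044). Under the POLR3G siRNA it stood at 52.0, 54.0 and 52.7, against 83.9, 87.5 and 88.9 with control siRNA (log2 -0.60 ± 0.03; edgeR, adjusted p = 1.1e-07). Both calls held without any single library.

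Of the POLR3GL siRNAs, 2 moved EZH2 the other way. It stood at 110, 104 and 105 CPM with siE6 and at 103, 105 and 107 with siE8, against 76.5, 79.9 and 85.2 with control siRNA (log2 0.50 ± 0.05 and 0.40 ± 0.05; edgeR, adjusted p = 1.0e-06 and 9.7e-06). With siE4 the values of 70.4, 72.9 and 69.4 lay below those controls without a call (log2 -0.09), and passed without control replicate 1 (adjusted p = 0.027). The siE6 and siE8 comparisons share their control libraries.

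By row, EZH2-203 and EZH2-208, both coding, fell with the ASO. EZH2-203 held 16.8, 15.2 and 25.1 CPM with the POLR3G ASO, against 31.3, 31.8 and 30.9 with the scrambled ASO (edgeR, adjusted p = 0.023, and up to 0.077 with a library left out). EZH2-208 held 10.1, 9.60 and 12.8, against 18.3 in each scrambled library (adjusted p = 0.0041, at most 0.020). EZH2-207, a row with the nonsense-mediated decay biotype, held 5.11, 4.18 and 4.69 CPM with CHX, against 2.27, 1.83 and 2.80 with DMSO (log2 0.97 ± 0.20; edgeR, adjusted p = 0.0045, where 28.6% of all rows passed). The CHX libraries all lay above the DMSO libraries for this row, while the EZH2 total did not pass the test (log2 -0.07). Relative to the other EZH2 rows, EZH2-207 did not pass (edgeR diffSpliceDGE, adjusted p = 0.83).

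KMT2A, the founding H3K4 methyltransferase of the MLL family, moved in opposite directions between agents. With the POLR3G siRNA it stood at 53.3, 61.5 and 59.1 CPM, against 83.1, 79.7 and 74.0 with control siRNA (log2 -0.34 ± 0.06; edgeR, adjusted p = 0.00070). With the ASO it stood at 204, 190 and 198, against 163, 171 and 185 with the scrambled ASO (log2 0.11 ± 0.04, adjusted p = 0.036). The ASO call was lost without scrambled replicate 1 (adjusted p = 0.16) or 2 (0.10), or ASO replicate 1 (0.14) or 3 (0.086), and when low genes were kept in (log2 0.08).

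CHX raised KMT2A to 99.1, 96.8 and 101 CPM, against 50.5, 50.3 and 54.3 with DMSO (log2 0.81 ± 0.04; edgeR, adjusted p = 1.4e-09). KMT2A-213, a long coding row, rose to 56.8, 54.2 and 62.5 with CHX, against 34.1, 24.1 and 30.4 with DMSO (edgeR, adjusted p = 0.00022). KMT2A-209, a coding row of 4320 annotated bases, held 17.6% to 25.3% of KMT2A reads in the means of the THP-1 groups and at most 0.4% in those of HEK293T. With siE4 the KMT2A total was 88.9, 95.7 and 101.6 and with siE8 73.0, 47.0 and 52.0, against 82.0, 76.5 and 72.0 in the same controls. The siE4 libraries lay above the controls (log2 0.40 ± 0.12; edgeR, adjusted p = 0.0094), and the siE8 libraries were lower on average with 1 of them among the controls (log2 -0.41 ± 0.12, adjusted p = 0.0096).

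EHMT1, the partner of EHMT2, was higher with the POLR3G siRNA, at 59.9, 60.4 and 61.2 CPM, against 51.3, 49.96 and 47.8 with control siRNA (log2 0.39 ± 0.03; edgeR, adjusted p = 3.5e-06). CHX raised it to 126, 129 and 126, against 95.4, 94.7 and 90.7 with DMSO (log2 0.31 ± 0.03; edgeR, adjusted p = 5.8e-07). Small rises were called with siE4 and siE6 (log2 0.17 and 0.14; edgeR, adjusted p = 0.0037 and 0.0085). In CPM siE4 stood at 50.1 to 53.4 and siE6 at 47.7 to 52.0, against 48.7 to 48.9 in controls. The siE6 libraries thus overlapped the controls in CPM, which leaves out the library scaling factors (TMM) of the edgeR fit. With the ASO EHMT1 did not pass, and the ASO effect minus the siRNA effect was -0.44 ± 0.04 (edgeR, adjusted p = 9.5e-07). EHMT1-203, its leading coding row, rose with the siRNA (edgeR, adjusted p = 7.9e-05, where 32.5% of all rows passed).

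**Figure D4:**
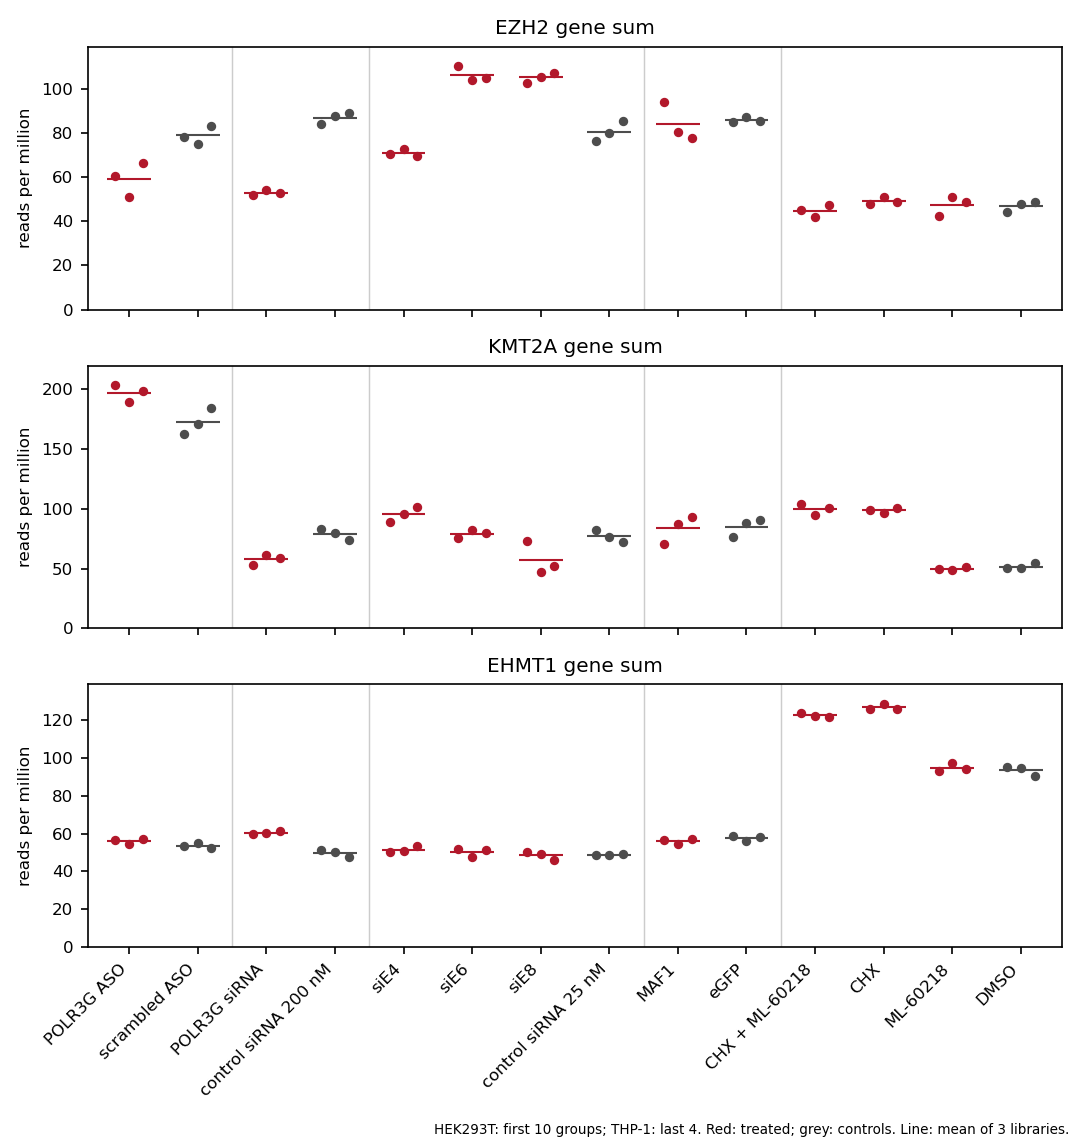
Gene totals of EZH2, KMT2A and EHMT1 in CPM in each library (points) with the mean of 3 (lines), treated groups to the left of their controls. EZH2 is at 52.0 to 54.0 with the POLR3G siRNA, against 83.9 to 88.9 with control siRNA, and KMT2A is at 96.8 to 101 with CHX, against 50.3 to 54.3 with DMSO.

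SETD1B, like SETD1A a subunit of a COMPASS complex, had nearly all reads on SETD1B-203, with 99.7% to 100% of them in every group's mean. It was higher with the POLR3G siRNA (36.6, 36.8 and 40.4 CPM, against 31.2, 30.5 and 33.7 with control siRNA), with log2 0.36 ± 0.05 (edgeR, adjusted p = 0.00014). With siE4 it stood at 34.1, 33.2 and 39.9, against 25.6, 22.6 and 24.4 in controls (log2 0.65 ± 0.07; edgeR, adjusted p = 3.1e-06). It was higher also with siE8 (log2 0.29, adjusted p = 0.0029) and lower with CHX (log2 -0.38, adjusted p = 8.4e-06). With siE6 it was lower (log2 -0.22, adjusted p = 0.014), a call lost without siE6 replicate 1 (adjusted p = 0.058) or control replicate 1 (0.055).

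KMT2B, a second H3K4 methyltransferase of the MLL family, was lower with the POLR3G siRNA, at 42.6, 37.1 and 41.5 CPM, against 55.4, 63.5 and 61.7 with control siRNA (log2 -0.47 ± 0.06; edgeR, adjusted p = 9.8e-05). With siE4 it was lower (log2 -0.48 ± 0.10, adjusted p = 0.00083) and with CHX higher (log2 0.30 ± 0.06, adjusted p = 0.00080). Its siE6 call (log2 -0.25, adjusted p = 0.036) was lost without control replicate 1 (0.13) or 2 (0.084), or siE6 replicate 1 (0.13) or 2 (0.079).

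SETDB1 rose in total with CHX, to 115, 101 and 95.7 CPM, against 70.7, 80.5 and 79.7 with DMSO (log2 0.31 ± 0.07; edgeR, adjusted p = 0.0014). With the POLR3G siRNA its total did not pass (log2 -0.08, and adjusted p = 0.041 without control replicate 3), while its rows moved apart (edgeR diffSpliceDGE, adjusted p = 4.9e-06). SETDB1-212, a retained-intron row, held 2.998, 3.499 and 3.79 CPM with the POLR3G siRNA, against 5.85, 6.64 and 6.46 with control siRNA (edgeR, adjusted p = 0.0074). SETDB1-202, a shorter coding row, rose with siE8 to 9.94, 11.1 and 10.5, against 5.38, 6.86 and 5.91 in controls (edgeR, adjusted p = 0.0027, where 15.9% of all rows passed). Relative to the other rows, SETDB1-212 did not pass with the POLR3G siRNA (log2 -0.48; edgeR diffSpliceDGE, adjusted p = 0.71). Nor did SETDB1-202 with siE8 (edgeR diffSpliceDGE, adjusted p = 0.97). The gene-level usage call with the POLR3G siRNA was lost when rows had to hold 5% of the gene's reads (adjusted p = 0.13).

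KMT2C, the close relative of KMT2D, had unsteady rows too. KMT2C-203, a long coding row, was listed at 0 in 11 libraries of 7 groups, and KMT2C totals passed only with siE4 (log2 0.41, adjusted p = 0.033) and CHX (log2 0.85 ± 0.30, adjusted p = 0.025). The siE4 call was lost without siE4 replicate 2 (0.060) or 3 (0.14), or control replicate 2 (0.052) or 3 (0.14). The CHX call was lost without CHX replicate 1 (0.12) or DMSO replicate 1 (0.10) or 2 (0.096).

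Shifts in mean length reached the threshold for few members. With the POLR3G ASO 4 of 9 tested members passed, KMT2D, KMT2C, KMT2A and EZH2, where 13.7% of all genes passed. All 4 were shorter, as were 1463 of the 1865 genes called. Of the 6 tested members whose totals did not lead to their choice, 3 passed. KMT2C transcripts averaged 11150, 11492 and 12128 bases with the ASO, against 15999, 14809 and 13714 bases with the scrambled ASO (log2 -0.35 ± 0.06; limma, adjusted p = 0.023). KMT2A averaged 9663, 9387 and 9599 bases, against 10530, 12340 and 12478 (log2 -0.30 ± 0.07, adjusted p = 0.044). EZH2 averaged 2384, 2368 and 2481, against 2622, 2688 and 2682 (log2 -0.14 ± 0.02, adjusted p = 0.017).

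Of these, the KMT2D call held without any single library. For KMT2C, EZH2 and KMT2A it was lost under a replicate block, and for KMT2A also without a trend in the prior variance. For KMT2C it was lost without scrambled replicate 2 or ASO replicate 1 or 2 (adjusted p up to 0.071), for EZH2 without scrambled replicate 2 or 3 or ASO replicate 1 (up to 0.061), and for KMT2A without 5 of the 6 libraries, all but scrambled replicate 1 (up to 0.12). Over protein-coding transcripts alone the calls of KMT2C (log2 -0.15) and EZH2 (log2 -0.01) ended, while KMT2D and KMT2A stayed shorter past the threshold. Many rows of these genes have a later version than GENCODE 29, so their lengths come from the deposited counts and TPM values rather than the annotation. Such lengths differed also for SETD1B, which had nearly all reads on 1 row. SETD1B averaged 7135 ± 102 bases with the ASO and 7381 ± 59.6 with the scrambled ASO (SD, n = 3). A small difference in mean length is therefore not by itself a shift between rows.

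Elsewhere 1 member passed with the POLR3G siRNA (EHMT1, longer; 11.6% of all genes), 1 with siE4 (KMT2A, longer; 5.26%) and 1 with siE8 (SETD1A, shorter; 6.29%). The siE4 call of KMT2A was lost whichever library was left out (adjusted p up to 0.14). All 3 calls ended over protein-coding transcripts alone (log2 0.0025 for EHMT1 with the siRNA, 0.10 for KMT2A with siE4 and -0.17 for SETD1A with siE8). No member passed with siE6 (8.98%), MAF1 (0.00766%), ML-60218 (0%), CHX (13%) or ML-60218 with CHX (0%). Members at an unadjusted p under 0.05 numbered 0 with siE6, 1 with MAF1, 3 with ML-60218, 1 with CHX and 1 with ML-60218 and CHX. Over all genes 991 lay under it with ML-60218 and 1499 with ML-60218 and CHX, although no gene passed after adjustment.

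**Figure D5:**
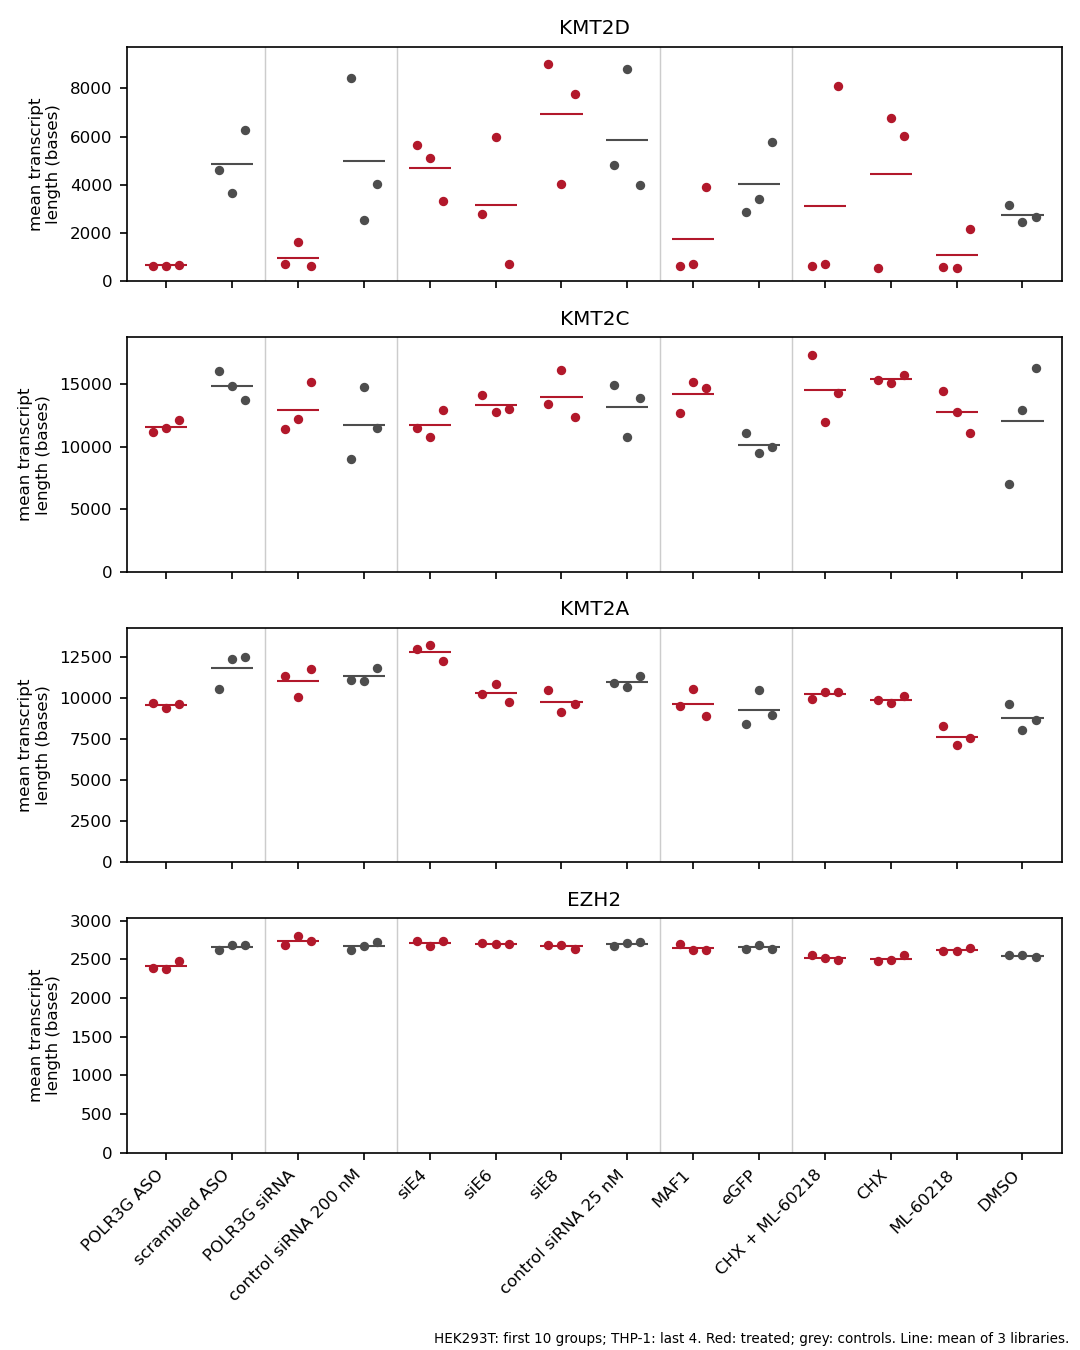
TPM-weighted mean transcript length in bases of KMT2D, KMT2C, KMT2A and EZH2 in each library (points) with the mean of 3 (lines), treated groups to the left of their controls. With the POLR3G ASO KMT2D is at 643 to 694 bases, against 3676 to 6286 with the scrambled ASO, and in several other groups its replicates lie far apart.

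Isoform usage passed for KMT2D, KMT2A, EHMT1 and EZH2 with the POLR3G ASO (30.9% of all genes tested) and for SETDB1 with the POLR3G siRNA (34.3%). It passed for none with siE4 (14%), MAF1 (0.845%), ML-60218 (1.69%) or ML-60218 with CHX (1.28%), where 0, 1, 1 and 2 members lay under an unadjusted p of 0.05. It passed for EHMT2 with siE6 (18%), for KMT2B with siE8 (15.8%) and for KMT2A, KMT2B and EZH2 with CHX (30.5%). Calls that held without any single library were those of KMT2D and EZH2 with the ASO, SETDB1 with the siRNA and EHMT2 with siE6. With the ASO the EHMT1 call held only without ASO replicate 1 (adjusted p up to 0.46 otherwise), and that of KMT2A was lost without scrambled replicate 2 or ASO replicate 2 or 3 (up to 0.15). The KMT2B call with siE8 held only without siE8 replicate 3 (up to 0.15). With CHX, KMT2B was lost without CHX replicate 1 or 3 or DMSO replicate 3 (up to 0.16), EZH2 without CHX replicate 1 or DMSO replicate 1 or 2 (up to 0.18), and KMT2A without any library but CHX replicate 3 (up to 0.22). By row, 17.9% of all transcripts passed with siE6.

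With mean length as an offset, 4 of the 7 genes whose totals did not lead to their choice passed with the POLR3G ASO (61.3% of all genes) and 5 of 7 with the POLR3G siRNA (69.4%). KMT2A, KMT2C and KMT2B were then higher with the ASO (log2 0.37, 0.41 and 0.22; edgeR, adjusted p = 7.7e-05, 0.010 and 0.0062), and these 3 calls held without any single library. EZH2 stayed lower with both agents (log2 -0.39 and -0.64).

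The ASO and siRNA effects were also set against each other directly. For totals the difference passed for 4 of the 7 genes whose totals did not lead to their choice (66.8% of all genes): KMT2A, SETD1B, EHMT1 and KMT2B. That of SETD1A was -0.89 on the log2 scale. For mean length it passed for EHMT1 and EZH2 (14.8% of all genes). Both were shorter with the ASO relative to the siRNA, as were 1462 of the 2009 genes called. Neither passed over protein-coding transcripts alone (log2 -0.0082 for EZH2 and -0.10 for EHMT1). The KMT2D total differed by -0.37 ± 0.60 between the agents (SE), and that of EHMT2 by -1.40 ± 0.72, or -3.33 without ASO replicate 1. ASO and siRNA libraries come from separate experiments with separate controls, so agent and experiment cannot be told apart.

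Per length, the order of the members depended on the control group. In the scrambled ASO libraries EZH2 was highest at 39.7 ± 2.5 TPM (SD, n = 3), followed by EHMT1 at 30.8 ± 1.4 and SETDB1 at 29.6 ± 0.20, which did not differ beyond their spread. KMT2A stood at 19.7 ± 1.2 TPM and SETD1A at 14.7 ± 2.3, then KMT2B at 10.7 ± 0.90 and EHMT2 at 10.2 ± 0.78, also within their spread. KMT2D at 8.66 ± 0.41 TPM, SETD1B at 7.13 ± 0.32 and KMT2C at 5.10 ± 0.78 came last. KMT2D and EHMT2 are placed here by rows of 6 of 8 and 2 of 12 annotated transcripts. In the TPM of KMT2D a read on a short row counts for more than 1 on KMT2D-201, so its place is not that of the full-length transcript. In the control siRNA libraries at 200 nM SETDB1 at 32.2 ± 0.22 TPM lay above EHMT1 at 29.6 ± 0.79. There KMT2B at 14.3 ± 1.2 TPM and EHMT2 at 13.8 ± 1.6 lay above KMT2A at 10.2 ± 0.91, with SETD1A at 12.1 ± 2.8 between them and within the spread of its neighbours. In DMSO-treated THP-1 cells SETDB1 came first at 55.0 ± 5.6 TPM, then EHMT1 at 43.3 ± 2.6 and EZH2 at 24.8 ± 1.5. KMT2B at 10.8 ± 1.0 and SETD1B at 10.0 ± 0.65 TPM overlapped in spread, as did SETD1A at 4.81 ± 0.93 and KMT2D at 3.93 ± 1.4, with KMT2A at 7.95 ± 0.82 between the pairs and KMT2C at 2.14 ± 0.56 below them. EHMT2, at 0 TPM in the DMSO libraries, was left out of that order. The lines were grown and treated in separate experiments, so line and experiment cannot be told apart.

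Partners of these enzymes changed in both directions. Of 15 COMPASS core and partner genes, 5 rose and 7 fell with the ASO, and 6 rose and 7 fell with the POLR3G siRNA (median log2 -0.11 and 0.04). That is 12 and 13 of 15 called, in comparisons where 68.5% and 74.9% of all genes were. DPY30, a core COMPASS subunit, had 9.90 ± 0.70 CPM with the POLR3G siRNA and 40.3 ± 1.06 with control siRNA (SD, n = 3; edgeR, adjusted p = 4.2e-09). KDM6A, the H3K27 demethylase of the KMT2C and KMT2D complexes, had 24.5 ± 1.45 with the ASO and 14.8 ± 0.73 with the scrambled ASO (adjusted p = 1.2e-05). RBBP5, another core subunit, rose with the ASO (log2 0.28) and ASH2L, also core, fell (log2 -0.40). WDR82 and HCFC1, of the SETD1A and SETD1B complexes, rose with the siRNA (log2 0.75 and 0.77), and PSIP1, a KMT2A partner, fell with both agents (log2 -0.25 and -0.63).

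Of 11 tested Polycomb repressive complex 2 genes, 4 rose and 4 fell with the ASO, and 5 rose and 4 fell with the siRNA, so 8 and 9 of 11 were called, beside 68.5% and 74.9% of all genes. MTF2, an accessory subunit, had 212 ± 1.58 CPM with the POLR3G siRNA and 98.4 ± 1.94 with control siRNA (edgeR, adjusted p = 3.5e-10). RBBP4, a histone-binding subunit, rose with the siRNA (log2 0.85) and fell with the ASO (log2 -0.23). EZH1, the paralog of EZH2, fell with both (log2 -0.48 with the ASO and -0.44 with the siRNA). SUZ12 and AEBP2 rose with the ASO by 0.07 and 0.12, and PHF19 fell with the siRNA by 0.51 on the log2 scale.

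Of 14 genes that work with the H3K9 methyltransferases, 2 rose and 7 fell with the ASO, and 8 rose and 4 fell with the siRNA, so 9 and 12 of 14 were called, beside the same 68.5% and 74.9%. CBX5, which encodes the H3K9 methylation reader HP1 alpha, fell with both, to 178 ± 8.59 CPM with the POLR3G siRNA, against 399 ± 17.7 with control siRNA (edgeR, adjusted p = 2.4e-08). SUV39H1 fell with the ASO (log2 -0.63), and SUV39H2, its paralog, rose with the siRNA (log2 0.86). TRIM28, the partner of SETDB1, rose with the siRNA (log2 0.51), TASOR of the HUSH complex fell with it (log2 -0.53), and ZNF644 and MPHOSPH8 rose with the ASO (log2 0.30 and 0.14).

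Other H3 lysine methyltransferase genes, 12 tested, numbered 5 up and 6 down with the ASO and 5 up and 4 down with the siRNA, so 11 and 9 of 12 were called (68.5% and 74.9% of all genes). KMT2E rose with both (log2 0.51 and 0.59) and SETD7 fell with both (log2 -0.14 and -0.62). ASH1L rose (log2 0.72) and SMYD3 fell (log2 -0.69) with the ASO, while SMYD2 rose (log2 0.63) and NSD3 fell (log2 -0.43) with the siRNA. Of 17 H3 lysine demethylase genes, which remove the marks, 7 rose and 7 fell with the ASO and 9 rose and 3 fell with the siRNA, so 14 and 12 of 17 were called, beside those shares. JMJD1C and KDM1B rose (log2 0.71 and 0.70) and KDM4A and KDM5C fell (log2 -0.52 and -0.24) with the ASO. KDM1A and KDM2B rose (log2 0.51 and 0.46) and KDM6B and KDM4B fell (log2 -0.56 and -0.31) with the siRNA.

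The genes whose mean transcript length followed that of KMT2D most closely over the 42 libraries, centred within experiment, were ZC3H18 (Pearson r = 0.70), SETDB2 (0.67) and HIRIP3 (0.66), among 11003 genes with at least 5 CPM. For SETD1A they were ALDH7A1 (0.79), SEMA3E (0.78) and DAG1 (0.74). For EHMT2, over the 30 HEK293T libraries, they were RRP9 (0.95), PRPF31 (0.95) and AC009133.6 (0.94), where the length of EHMT2 itself ranged only from 3710 to 4122 bases. These are descriptions over libraries that share experiments and a length scale, with no test.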

How the data were processed

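Poly(A) RNA was made into stranded libraries and read for 151 cycles, per the labels' protocols. The submitters' processing notes name bcl2fastq 2.20, Trim Galore, Salmon, DESeq2 and hg38. The authors deposited estimated counts and TPM per transcript, which Salmon makes by sharing out reads that fit several transcripts. Deposited IDs were matched to GENCODE 29 without their version (81.6% of rows), and gene sums of the counts, rounded, entered the count tests. Depth was 32705684 to 52568088 estimated reads per library. A gene's mean length is its counts over its TPM, scaled per library from 179 long rows.

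Totals and rows were tested with edgeR 4.0.16 (quasi-likelihood), usage with its diffSpliceDGE, and log2 mean length with limma 3.58.1, in R 4.3.3, each within its experiment and with Benjamini-Hochberg adjustment over all genes or rows; DESeq2 1.42.0 was an alternative. Summaries used Python 3.11.15. Scripts were tested on simulated data. Members and gene lists were chosen with earlier results of these data known. Named were all 10 members, their rows with at least 10% of the gene's reads in a group mean, up to 2 called genes per direction, list and POLR3G comparison by smallest adjusted p, and the 3 genes most like KMT2D, EHMT2 and SETD1A in length. Other settings (DESeq2 size factors, no filter, other rows, variance and block settings, and each library left out) were tried, and the closing section gives the results that moved.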

Additional observations from a re-analysis of the deposited data

Results flagged for a closer look

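Between the POLR3G ASO and the POLR3G siRNA, 7 values were flagged as different, 1 of them untested. The difference in totals passed for 4 of the 7 genes whose totals did not lead to their choice, beside 66.8% of all genes. In mean length it passed for 2 of 9 tested members, beside 14.8% of all genes. In gene totals the ASO effect minus the siRNA effect was 0.42 for KMT2A, -0.30 for SETD1B, -0.44 for EHMT1 and 0.49 for KMT2B on the log2 scale (edgeR, adjusted p = 0.00045, 0.0023, 9.5e-07 and 0.00023). For SETD1A, whose total led to its choice, it was -0.89, given as a description. In mean transcript length it was -0.18 for EZH2 and -0.22 for EHMT1 (limma, adjusted p = 0.0060 and 0.0044). The tested differences passed the threshold without any single library, and both length differences missed it over protein-coding transcripts alone (-0.0082 for EZH2 and -0.10 for EHMT1). The agents were tested in separate experiments, so agent and experiment cannot be told apart. Groups of 3 libraries are too small for the test of a single outlying sample.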

How the results depend on the processing

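No called difference changed sign under any setting tried. The main tests did not pair libraries by replicate number. Same-numbered libraries correlated over 0.1 in all 3 pairs in no comparison (-0.27 to 0.25). In siE8, MAF1, CHX, and ML-60218 with CHX, all 3 numbers correlated best with their own, so some pairing there is possible. With a replicate block, length calls fell to 744 genes and 1 member (KMT2D) with the ASO, against 1865 and 4, to 730 and 0 with the siRNA, against 1502 and 1, to 0 members with siE4, against 1, and to 0 genes with MAF1, against 1; usage calls of members over the 9 comparisons fell to 5, against 10. No other count of calls moved by over 1.5 times under the block.

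Over protein-coding transcripts alone, length calls were 806 genes and 2 members with the ASO, 911 and 0 with the siRNA, 0 members with siE8 (against 1), 1 gene with ML-60218 (against 0), 832 with CHX (against 1643), 1 with ML-60218 and CHX (against 0), and 1076 genes and 1 member in the difference between the agents (against 2009 and 2). Without a trend in the prior variance they were 0 members with siE4 and 2 genes with MAF1, and with no filter 1 gene with ML-60218. MAF1 totals gave 32 calls with DESeq2 and 11 with no filter, against 6. Usage with stricter rows gave 6 member calls. With DESeq2 size factors no count of calls moved by over 1.5 times, and with short rows set at under 25% of the longest the short shares of KMT2D did not move. The cause was not tested.

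With 1 library left out, totals called among all 10 members (those of KMT2D, EHMT2 and SETD1A as a description) were 2 to 3 with the ASO, 3 to 5 with siE6, 0 to 1 with ML-60218 and 1 to 2 with ML-60218 and CHX. Called totals of all genes were 2 to 9 with MAF1, 1516 to 2179 with ML-60218 (against 2404) and 1643 to 2290 with ML-60218 and CHX (against 2529). Length calls over all genes were 929 to 1313 with the ASO, 876 to 1017 with the siRNA, 424 to 625 with siE4 (against 686), 518 to 649 with siE8 (against 820), 0 to 1 with MAF1, 0 to 2 with ML-60218 and 0 to 19 with ML-60218 and CHX. Members with a length call were 1 to 4 with the ASO, 1 to 2 with the siRNA, 0 to 1 with siE4, 0 to 2 with siE8 and 0 to 1 with CHX. The difference between the agents in totals with the length offset gave 4 to 6 member calls, against 7. Of single values, 29 lost their call under another setting while 311 kept it, and 111 did with a library left out while 483 kept it. Rows listed at 0 in some libraries limit what can be said of KMT2D, KMT2C and EHMT2.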
